A study of Mus musculus with 24 samples.

Results

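The 10 genes described here encode subunits of the variant Polycomb repressive complexes 1 (variant PRC1): Pcgf1, Pcgf2, Pcgf3, Pcgf5, Pcgf6, Rybp, Yaf2, Kdm2b, Bcor and L3mbtl2. They were chosen by gene symbol as known subunits and are 10 of the 22609 gene symbols counted in each of 24 poly-A RNA-seq libraries. All cells were E14TG2a mouse embryonic stem cells (mESCs, a feeder-free line of the 129/Ola strain grown in serum with LIF, the cytokine that keeps them pluripotent). There were 8 groups of 3 libraries. In the differentiating groups, cells with shMed12, shCdk8 or shNMC had spent 24 h without LIF in 1e-06 M all-trans retinoic acid (RA). In the mESC groups, cells carried shMed12, shCdk8, shRing1b or shNMC, or were untransfected. The hairpins were stably transfected. Those named for a gene target Med12 and Cdk8, which encode parts of the kinase module of Mediator, or Rnf2, which encodes the PRC1 subunit Ring1b. The control hairpin shNMC has no mammalian target. The labels do not say how many hairpin sequences or clones were used, or whether the 3 libraries of a group came from separate cultures, so the p-values measure the spread between these libraries, which may be technical. No group lost LIF without receiving RA, so the effects of the RA and of the LIF withdrawal cannot be told apart.

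PRC1 is an E3 ubiquitin ligase that places a ubiquitin on histone H2A and keeps developmental genes silent. Each complex pairs a Ring1 protein with 1 of the Pcgf proteins, and the Pcgf protein sets which other subunits join. Variant complexes hold Rybp or its paralog Yaf2 in the place that a chromobox (Cbx) protein takes in canonical PRC1. Pcgf1 works with the CpG island-binding protein Kdm2b and the corepressor Bcor. Pcgf3 and Pcgf5 are close paralogs that form similar complexes and are known for their part in silencing of the X chromosome by Xist. Pcgf6 works with L3mbtl2 and the factors Mga, Max and E2f6 and is known for silencing germline genes in mESCs. Pcgf2 is known mainly from canonical PRC1, and also occurs with Rybp or Yaf2.

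The gene counts per library lay between 27.4 and 57.3 M, and the 10 genes passed the low-count filter as did 16280 genes in all. The untransfected and shRing1b libraries had 20.0% to 21.7% of entries as reads with several alignments, and the other 18 libraries 44.1% to 49.1%. For this reason shRing1b cells were set against untransfected cells, and the hairpins against Med12 and Cdk8 against shNMC. Med12 averaged 41.7 ± 5.8 CPM (counts per 1e6 gene counts with TMM scaling, mean ± SD, n = 3) in shMed12 mESCs and 133 ± 5.5 CPM in shNMC mESCs. After RA it averaged 48.5 ± 11 CPM with shMed12 and 119 ± 25 CPM with shNMC. Cdk8 averaged 12.8 ± 2.3 CPM in shCdk8 mESCs and 53.4 ± 3.1 CPM in shNMC mESCs, and after RA 9.90 ± 2.2 CPM with shCdk8 and 45.6 ± 2.7 CPM with shNMC. With shRing1b, Rnf2 was at 52.4 and 64.2 CPM in replicates 1 and 2, but at 207 CPM in the library labelled shRing1b replicate 3, against 221, 302 and 262 CPM without transfection. That library thus kept most of its Rnf2 RNA, and results on shRing1b are given with and without it. The pluripotent marker list, which holds 10 genes, summed to 2410 to 2910 CPM in RA-treated shNMC cells, 6180 to 6240 CPM in shNMC mESCs and 5630 to 6230 CPM in untransfected cells, and none of its genes was without a count in any group.

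All 10 genes had counts in every library. They lie on chromosomes 6 (Pcgf1 and Rybp), 11 (Pcgf2), 5 (Pcgf3 and Kdm2b), 19 (Pcgf5 and Pcgf6), 15 (Yaf2 and L3mbtl2) and X (Bcor). Per kilobase of merged exons, in shNMC mESCs, L3mbtl2 had the highest level at 42.8 ± 3.1 CPM per kb (SD, n = 3). It was followed by Pcgf6 at 29.4 ± 1.7 and Pcgf2 at 28.2 ± 1.4 CPM per kb, which differed by less than the SD of either. Rybp stood at 15.4 ± 2.4, Pcgf3 at 11.5 ± 0.11, Bcor at 7.03 ± 0.75 and Kdm2b at 6.57 ± 0.21 CPM per kb, and Bcor and Kdm2b differed by less than the SD of Bcor but by more than that of Kdm2b. Pcgf1 had 5.22 ± 0.43, Yaf2 4.56 ± 0.16 and Pcgf5, the lowest, 1.13 ± 0.058 CPM per kb. Exon lengths came from GENCODE M21, which may not be the annotation the authors counted with, so these levels per length are approximate. Across the means of the 8 groups, the range on the log2 CPM scale was widest for Yaf2 (1.69) and Pcgf5 (1.56), then L3mbtl2 (1.25), and narrowest for Pcgf1 (0.52) and Pcgf3 (0.33).

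Changes were tested over all 16280 genes with edgeR's quasi-likelihood test and called at a Benjamini-Hochberg adjusted p under 0.05. With shMed12 in mESCs, against shNMC, 2 of the 10 genes rose and 3 fell, where 20.6% of all tested genes rose and 19.9% fell (40.5% together). After RA, with shMed12 against shNMC, 3 rose and 2 fell, where 21.3% of all genes rose and 20.6% fell (41.9% together). With shCdk8 in mESCs none was called against a background of 3.66%, although 2 had an unadjusted p under 0.05 (Pcgf6 and Yaf2) and DESeq2 called 1, Pcgf6. After RA, with shCdk8 against shNMC, 1 rose and 2 fell, where 4.1% of all genes rose and 3.64% fell (7.73% together). The RA response had 3 of the genes higher and 3 lower in shNMC cells, where 27.3% of all genes rose and 24.1% fell (51.4% together). In shMed12 cells 1 was higher and 4 were lower with RA (19.6% and 17.5% of all genes, 37.1% together). In shCdk8 cells 5 were higher and 3 lower with RA (26.7% and 25.1% of all genes, 51.7% together). The share of the genes called was near the background in most of these comparisons, so the results below concern the single genes and not the group. The median of the 10 log2 changes was -0.01 in shMed12 mESCs, the same as over all genes (-0.01), and -0.01 for the RA response of shNMC cells, against 0.02 over all genes. The hairpin comparisons of a state share their shNMC libraries, as do the RA response of shNMC cells and the comparisons with it.

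**Figure D1:**
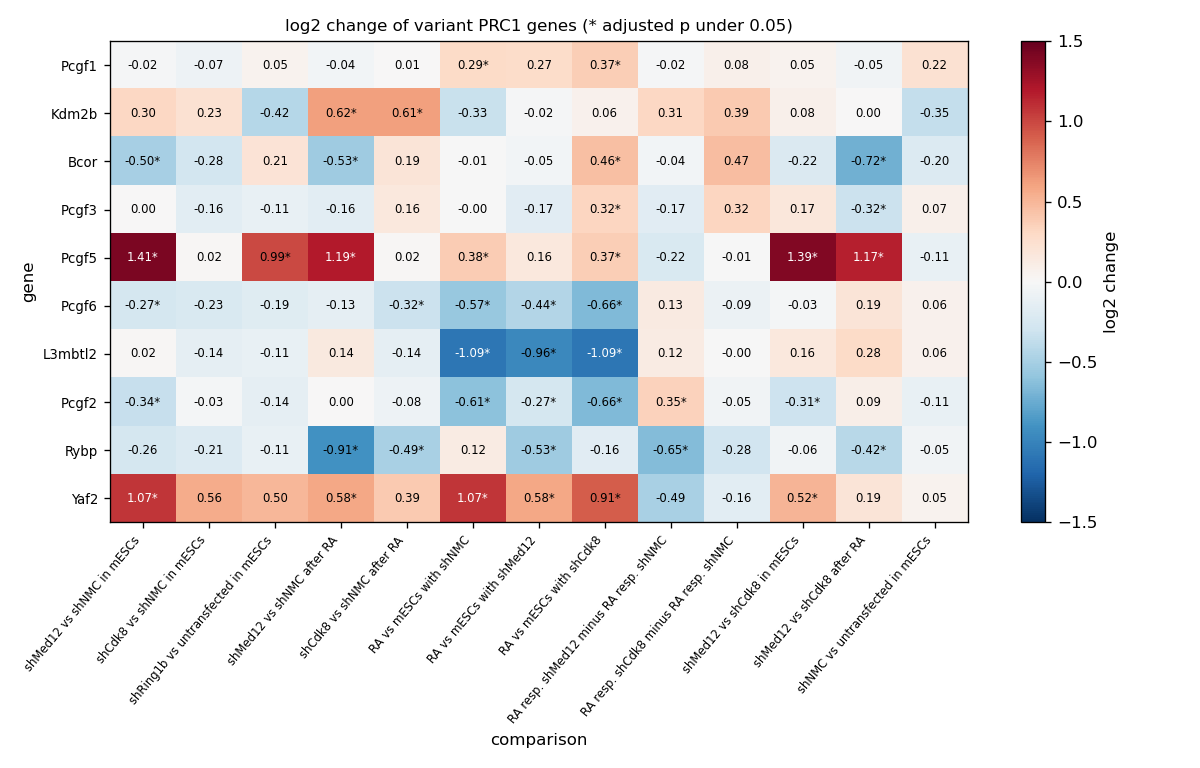
Log2 changes (edgeR) of the 10 genes, 1 per row, in the 13 comparisons, 1 per column, on a colour scale from blue (lower in the first-named group) to red (higher), with an asterisk at an adjusted p under 0.05. Pcgf5 was called higher in all 4 columns that set shMed12 against shNMC or shCdk8, and L3mbtl2, Pcgf6 and Pcgf2 were called lower in all 3 columns that set RA against mESCs. In each of these 3 columns 17.5% to 25.1% of all genes were called lower.

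Pcgf5, a RING finger partner of Ring1b, rose with shMed12 more than any of the other 9 genes. Its level was 42.6, 39.6 and 32.0 CPM in shMed12 mESCs, against 15.1, 14.3 and 13.6 CPM in shNMC mESCs. The groups did not overlap, and the log2 change was 1.41 (SE 0.15, adjusted p = 1.7e-07), a 2.66-fold difference. After RA, Pcgf5 stood at 45.7, 43.2 and 38.5 CPM with shMed12, against 19.5, 20.2 and 16.2 CPM with shNMC. The groups were again apart, with a log2 change of 1.19 (SE 0.15, adjusted p = 1.9e-06). The shCdk8 libraries held 14.7, 15.3 and 13.7 CPM in mESCs and 18.1, 19.6 and 18.8 CPM after RA, within or close to the shNMC range in each state. The log2 change with shCdk8 was 0.02 in mESCs (95% interval -0.29 to 0.34) and 0.02 after RA (-0.30 to 0.33). Set against shCdk8 directly, shMed12 cells had more Pcgf5 RNA in mESCs (log2 1.39, SE 0.15, adjusted p = 2.7e-07, 35.8% of all genes called) and after RA (log2 1.17, SE 0.15, adjusted p = 2.6e-06, 41.4% of all genes called). All of these Pcgf5 calls between shMed12 and shNMC or shCdk8 were kept under every alternative tried.

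The shMed12 cells also differed from shNMC cells in markers of other cell types. Of 9 trophectoderm markers tested, 8 rose with shMed12 in mESCs, and their summed level was 552 to 705 CPM, against 22.8 to 28.3 CPM with shNMC. After RA 7 of the 9 rose and the sums were 661 to 856 CPM with shMed12 and 43.7 to 53.5 CPM with shNMC. Among fibroblast markers 6 of 9 were called higher and 1 lower in shMed12 mESCs, with sums of 2200 to 2320 CPM with shMed12 and 2400 to 2830 CPM with shNMC. Of 9 primitive endoderm markers 4 fell, with sums of 221 to 251 CPM with shMed12 and 344 to 413 CPM with shNMC. No trophectoderm or primitive endoderm marker was without a count in the mESC groups, and the fibroblast marker Lum had none in shNMC mESCs. The pluripotent markers summed to 3550 to 3850 CPM in shMed12 mESCs and 6180 to 6240 CPM in shNMC mESCs. After RA, with shMed12 against shNMC, 8 of the 10 pluripotent markers fell and 1 rose, with sums of 1620 to 1750 CPM with shMed12 and 2410 to 2910 CPM with shNMC. Of the fibroblast markers 6 rose and 2 fell after RA (sums of 1410 to 1550 CPM with shMed12 and 1380 to 2280 CPM with shNMC). Of the primitive endoderm markers 3 fell after RA (254 to 275 CPM with shMed12 and 293 to 313 CPM with shNMC). In bulk libraries a changed number of cells of a type and a changed RNA level per cell cannot be told apart, and the part of these marker changes in the results on shMed12 was not tested.

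Pcgf3, the close paralog of Pcgf5, was not called with shMed12 in either state. It had 105, 107 and 118 CPM in shMed12 mESCs, against 110, 109 and 110 CPM in shNMC mESCs, with overlapping groups (log2 change 0.00, 95% interval -0.24 to 0.25, adjusted p = 0.98). After RA it had 90.9, 86.2 and 117 CPM with shMed12, against 99.4, 99.3 and 130 CPM with shNMC (log2 -0.16, adjusted p = 0.28). Without the RA shMed12 replicate 3 this difference was called (log2 -0.31, adjusted p = 0.047). Read counts of Pcgf5 over those of Pcgf3 in the same library, a ratio that needs no scaling between libraries, were 0.405, 0.369 and 0.271 in shMed12 mESCs, against 0.136, 0.131 and 0.123 in shNMC mESCs. After RA the ratio was 0.503, 0.502 and 0.331 with shMed12, and 0.196, 0.204 and 0.124 with shNMC. The libraries with shMed12 thus held more Pcgf5 reads per Pcgf3 read than any shNMC library of the same state.

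Pcgf5 was also called higher with RA in shNMC and shCdk8 cells. The log2 change with RA was 0.38 in shNMC cells (SE 0.15, adjusted p = 0.039), 0.37 in shCdk8 cells (SE 0.15, adjusted p = 0.043) and 0.16 in shMed12 cells (SE 0.15, adjusted p = 0.42). The shNMC call was lost without RA shNMC replicate 1 or 2 or mESC shNMC replicate 2 or 3 (adjusted p = 0.079 to 0.12). The shCdk8 call was lost on leaving out any 1 of its 6 libraries (adjusted p = 0.053 to 0.11). The RA responses of Pcgf5 in shMed12 and shNMC cells differed by -0.22 on the log2 scale (95% interval -0.66 to 0.22, adjusted p = 0.64). Pcgf3 rose with RA in shCdk8 cells, which had 106, 132 and 130 CPM after RA and 89.2, 104 and 101 CPM as mESCs (log2 0.32, SE 0.12, adjusted p = 0.027). That call was lost without RA shCdk8 replicate 2 or 3 or mESC shCdk8 replicate 1 (adjusted p = 0.064 to 0.11).

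**Figure D2:**
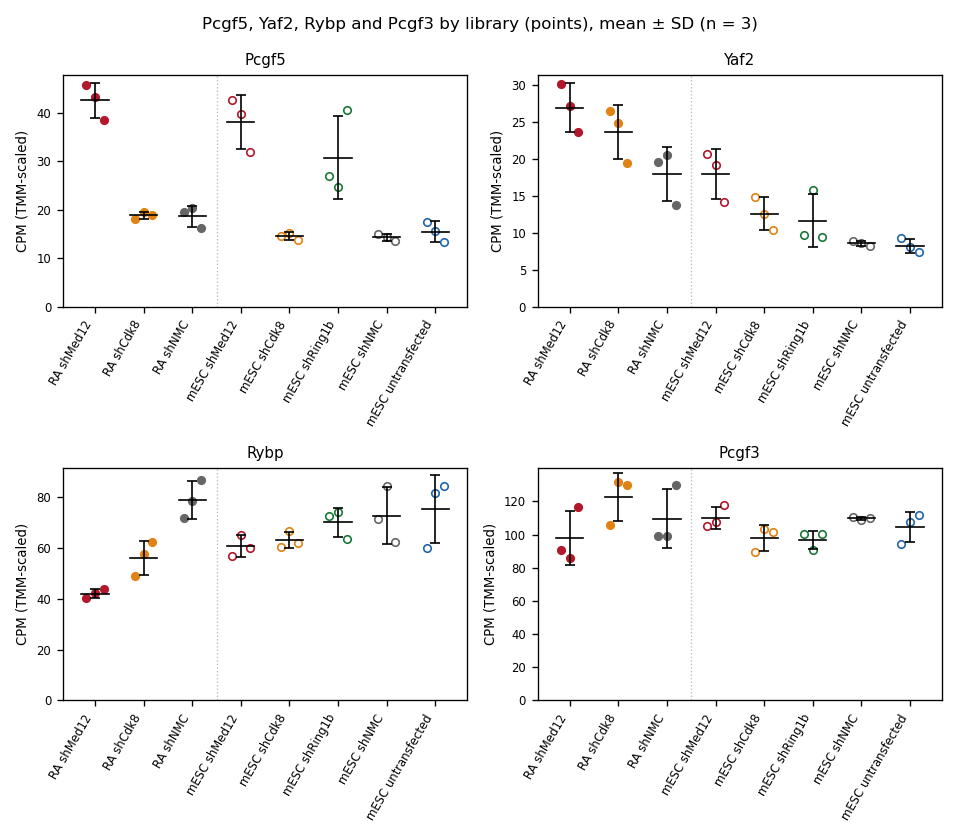
CPM of Pcgf5, Yaf2, Rybp and Pcgf3 in each library (points; filled after RA, open in mESCs), with the group mean (bar) and SD (error bar, n = 3), for the 8 groups on the x axis. The 6 shMed12 libraries lay between 32.0 and 45.7 CPM for Pcgf5, above all shNMC, shCdk8 and untransfected libraries.

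Rybp and Yaf2, the paralogs that mark variant PRC1, changed in opposite directions with shMed12 after RA, where Rybp fell and Yaf2 rose. In RA-treated cells Rybp stood at 40.4, 42.2 and 43.7 CPM with shMed12, against 71.9, 78.6 and 86.8 CPM with shNMC. The groups were far apart and the log2 change was -0.91 (SE 0.12, adjusted p = 5.1e-06). With shCdk8 after RA, Rybp had 49.1, 57.5 and 62.3 CPM, also below every shNMC library (log2 -0.49, SE 0.12, adjusted p = 0.017). In mESCs the shMed12 libraries held 56.8, 65.3 and 60.1 CPM, against 71.5, 84.7 and 62.4 CPM in the shNMC libraries, which overlapped (log2 -0.26, SE 0.12, adjusted p = 0.096). That difference passed the threshold without mESC shNMC replicate 3 (log2 -0.34, adjusted p = 0.045). The call with shCdk8 after RA was lost without RA shCdk8 replicate 1 or 2 or RA shNMC replicate 3 (adjusted p = 0.058 to 0.098). In the same comparison 8 of the 10 pluripotent markers fell, with sums of 1660 to 2110 CPM with shCdk8 and 2410 to 2910 CPM with shNMC, and their part in the results on shCdk8 was not tested.

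The RA response of Rybp differed between lines. Rybp fell with RA in shMed12 cells (log2 -0.53, SE 0.12, adjusted p = 0.0021), while in shNMC cells its log2 change was 0.12 (95% interval -0.14 to 0.37, adjusted p = 0.44). The difference of the 2 responses was -0.65 (SE 0.18, adjusted p = 0.033), 1 of the 2 of the 10 genes called in this interaction, 1 in each direction, where 1.74% of all genes had a positive and 3.3% a negative call (5.04% together). It was lost without RA shMed12 replicate 2 or 3, mESC shMed12 replicate 2 or mESC shNMC replicate 3 (adjusted p = 0.053 to 0.072, log2 -0.67 to -0.59). For shCdk8 the difference of responses was -0.28 (95% interval -0.65 to 0.08), and none of the 10 genes was called in that interaction by edgeR or DESeq2 (background 0.0369%, 1 at an unadjusted p under 0.05).

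Yaf2 was high where RA or shMed12 was present. It had 19.6, 20.5 and 13.8 CPM in RA-treated shNMC cells, against 8.84, 8.56 and 8.23 CPM in shNMC mESCs, with a log2 change of 1.07 (SE 0.20, adjusted p = 1.2e-04). With shMed12 in mESCs it stood at 20.6, 19.1 and 14.2 CPM, also above every shNMC mESC library (log2 1.07, SE 0.20, adjusted p = 1.7e-04). The 2 changes were of the same size to 2 decimals, and the 2 comparisons share the shNMC mESC libraries. After RA the shMed12 libraries held 30.1, 27.1 and 23.5 CPM, the highest group of the series, and lay above the shNMC libraries by 0.58 on the log2 scale (SE 0.19, adjusted p = 0.019). That call was lost without RA shMed12 replicate 1 or RA shNMC replicate 3 (adjusted p = 0.10 and 0.14). RA raised Yaf2 in shMed12 cells by 0.58 (SE 0.19, adjusted p = 0.022) and in shCdk8 cells by 0.91 on the log2 scale (SE 0.20, adjusted p = 5.6e-04). The shMed12 value was lost as a call without RA shMed12 replicate 1 or 2 or mESC shMed12 replicate 3 (adjusted p = 0.056 to 0.13). The RA responses in shMed12 and shNMC cells differed by -0.49 (95% interval -1.06 to 0.08, adjusted p = 0.37).

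Yaf2 in shCdk8 mESCs lay between the other lines. Its 14.8, 12.5 and 10.4 CPM were above every shNMC mESC library, yet the change did not pass the threshold (log2 0.56, SE 0.20, adjusted p = 0.13). It was called under 3 of the 12 alternatives tried. The shMed12 mESCs exceeded the shCdk8 mESCs by 0.52 (SE 0.20, adjusted p = 0.044), a call lost without mESC shCdk8 replicate 2 or 3 or mESC shMed12 replicate 1 or 2 (adjusted p = 0.091 to 0.18). The Yaf2 reads per Rybp read numbered 0.745, 0.642 and 0.538 in RA-treated shMed12 cells and 0.538, 0.431 and 0.312 in RA-treated shCdk8 cells, against 0.272, 0.261 and 0.159 in RA-treated shNMC cells. In mESCs the ratio was 0.363, 0.292 and 0.236 with shMed12 and 0.246, 0.188 and 0.167 with shCdk8, against 0.124, 0.101 and 0.132 with shNMC. In each state every library with shMed12 or shCdk8 exceeded every shNMC library in this ratio. The gene model of Rybp shares 8.93% of its 50-base stretches with the pseudogene Rybp-ps, whereas Yaf2 shares none with another gene.

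**Figure D3:**
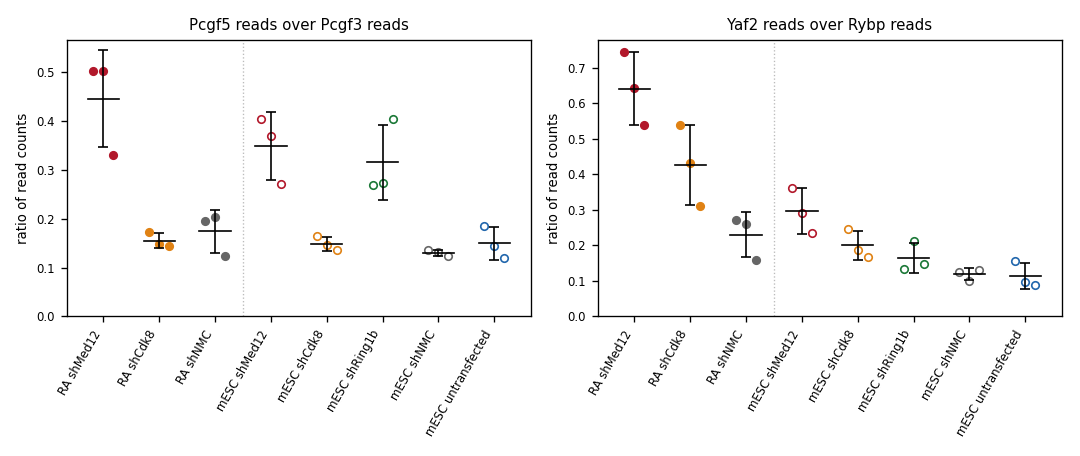
Ratio of read counts within each library (points; filled after RA, open in mESCs) with group mean (bar) and SD (error bar, n = 3), for Pcgf5 over Pcgf3 on the left and Yaf2 over Rybp on the right. The Yaf2 to Rybp ratio spanned 0.538 to 0.745 in RA-treated shMed12 cells and 0.101 to 0.132 in shNMC mESCs.

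The Pcgf1 complex was described by Pcgf1, Kdm2b and Bcor. Kdm2b, whose zinc finger binds unmethylated CpG islands, had 74.5, 83.1 and 104 CPM in RA-treated shMed12 cells, against 50.1, 56.7 and 63.7 CPM in RA-treated shNMC cells (log2 0.62, SE 0.15, adjusted p = 0.0021). With shCdk8 after RA it had 75.0, 91.2 and 94.8 CPM (log2 0.61 against shNMC, SE 0.15, adjusted p = 0.014). Both hairpin groups lay above all RA-treated shNMC libraries, and they differed from each other by a log2 change of 0.00 (95% interval -0.30 to 0.31). The shCdk8 call was lost without RA shCdk8 replicate 2 or 3 or RA shNMC replicate 1 (adjusted p = 0.053 to 0.083). In mESCs Kdm2b stood at 81.3, 86.1 and 97.2 CPM with shMed12 and 77.8, 84.6 and 87.9 CPM with shCdk8, against 69.4, 73.8 and 71.0 CPM with shNMC. These groups did not overlap with shNMC either, but neither change passed the threshold (log2 0.30, adjusted p = 0.11, and log2 0.23, adjusted p = 0.46). Of the 12 alternatives tried for each, 2 called the change with shMed12 and 1 the change with shCdk8. In the gene models 7.60% of the Kdm2b exon bases overlap genes on the other strand, among them Rnf34.

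Bcor, the corepressor of the complex, fell with shMed12. It had 40.2, 42.8 and 46.4 CPM in shMed12 mESCs, against 57.4, 68.4 and 56.9 CPM in shNMC mESCs (log2 -0.50, SE 0.16, adjusted p = 0.014). After RA it had 38.3, 42.3 and 44.8 CPM with shMed12, against 58.5, 62.5 and 60.5 CPM with shNMC (log2 -0.53, SE 0.16, adjusted p = 0.0086). The groups did not overlap in either state. The mESC call was lost without mESC shMed12 replicate 1 (adjusted p = 0.060) or mESC shNMC replicate 2 (adjusted p = 0.075). With shCdk8 after RA Bcor was at 66.9, 70.0 and 69.9 CPM, above all shNMC libraries (log2 0.19, adjusted p = 0.51). The RA-treated shMed12 cells had less Bcor RNA than the RA-treated shCdk8 cells by -0.72 on the log2 scale (SE 0.16, adjusted p = 8.4e-04). RA raised Bcor in shCdk8 cells, which as mESCs had 46.8, 52.4 and 51.6 CPM (log2 0.46, SE 0.16, adjusted p = 0.018). That call was lost without mESC shCdk8 replicate 1 (adjusted p = 0.058). In shNMC cells the RA change of Bcor was -0.01 (95% interval -0.33 to 0.31). The RA responses of Bcor in shCdk8 and shNMC cells differed by 0.47 (95% interval 0.01 to 0.92), which was not called in the fit over all libraries.

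Pcgf1, which gives the complex its identity, was present at 7.17 to 11.5 CPM in all 24 libraries. No hairpin changed it by a called amount in either state. RA-treated cells had more: 11.5, 10.2 and 9.87 CPM in shNMC cells after RA, against 8.22, 9.42 and 8.16 CPM in shNMC mESCs (log2 0.29, SE 0.11, adjusted p = 0.034). The change with RA was 0.37 in shCdk8 cells (SE 0.11, adjusted p = 0.0080) and 0.27 in shMed12 cells (SE 0.11, adjusted p = 0.061). The groups did not overlap in any of the 3 lines. The shNMC call was lost without RA shNMC replicate 1 or mESC shNMC replicate 1 or 3 (adjusted p = 0.067 to 0.16). Of the 50-base stretches of Pcgf1, 15.3% also occur in the gene model Gm8930, and how this affects the Pcgf1 counts was not tested.

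**Figure D4:**
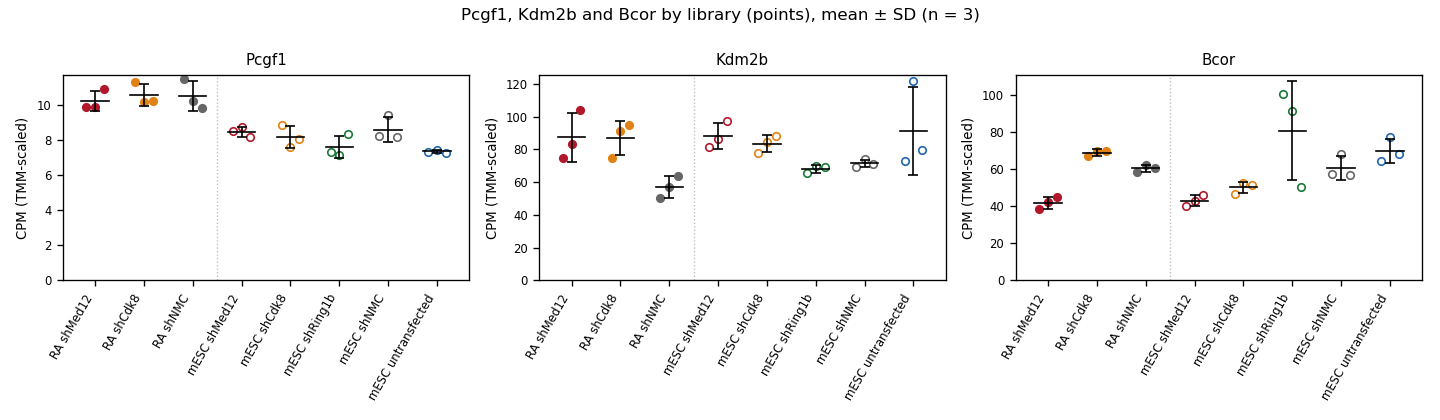
CPM of Pcgf1, Kdm2b and Bcor in each library (points; filled after RA, open in mESCs), with the group mean (bar) and SD (error bar, n = 3), for the 8 groups. The 6 shMed12 libraries lay between 38.3 and 46.4 CPM for Bcor, below all 6 shNMC libraries.

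L3mbtl2, Pcgf6 and Pcgf2 fell with RA in all 3 lines tested. Of all genes, 24.1% fell with RA in shNMC cells, 17.5% in shMed12 cells and 25.1% in shCdk8 cells. The share of all genes that fell in all 3 lines is not given here, so the joint fall is described for the single genes only. L3mbtl2, a chromatin-binding MBT protein of the Pcgf6 complex, had 109, 113 and 138 CPM in RA-treated shNMC cells, against 238, 274 and 251 CPM in shNMC mESCs. Its log2 change was -1.09 (SE 0.12, adjusted p = 3.0e-07), which is 0.471 of the mESC level. In shMed12 cells it had 123, 133 and 141 CPM after RA, against 244, 241 and 291 CPM as mESCs (log2 -0.96, SE 0.12, adjusted p = 3.1e-06). In shCdk8 cells it had 102, 99.9 and 125 CPM after RA, against 222, 225 and 248 CPM as mESCs (log2 -1.09, SE 0.12, adjusted p = 2.7e-07). All RA-treated libraries lay below all mESC libraries of the series. Of the 10 pluripotent markers, 9 fell with RA in shNMC cells, 9 in shMed12 cells and 10 in shCdk8 cells, and the part of the loss of pluripotency markers in the RA results was not tested. In the fit over all libraries no hairpin changed L3mbtl2 by a called amount against its control. On the compared groups with the replicate number as a block, it was called lower with shCdk8 after RA, where the numbers pair the libraries (log2 -0.14, adjusted p = 0.0093). That fit called 50% of all genes. L3mbtl2 was called higher in the same kind of fit with shMed12 after RA (log2 0.15, adjusted p = 0.049), where 10233 of 15819 genes were called. There the residuals of same-numbered libraries correlated at 0.455, 0.0892 and 0.494, so not all were over the 0.1 set for pairing. In the gene models 17.2% of the L3mbtl2 exon bases overlap Chadl on the other strand, and whether the counting used strand is not given in the sources used here.

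Pcgf6, which gives the germline gene-silencing complex its identity, had 104, 98.3 and 96.8 CPM in RA-treated shNMC cells, against 149, 155 and 139 CPM in shNMC mESCs (log2 -0.57, SE 0.08, adjusted p = 4.1e-06). It had 97.1, 87.8 and 87.2 CPM in RA-treated shMed12 cells, against 126, 125 and 117 CPM in shMed12 mESCs (log2 -0.44, SE 0.08, adjusted p = 1.8e-04). It had 81.8, 80.6 and 76.3 CPM in RA-treated shCdk8 cells, against 133, 124 and 120 CPM in shCdk8 mESCs (log2 -0.66, SE 0.08, adjusted p = 6.1e-07). The groups did not overlap in any line. Hairpin effects were smaller. Pcgf6 fell with shMed12 in mESCs (log2 -0.27, SE 0.08, adjusted p = 0.0097), a call lost without mESC shMed12 replicate 3 (log2 -0.22, adjusted p = 0.051). It fell with shCdk8 after RA (log2 -0.32, SE 0.08, adjusted p = 0.014), a call lost without RA shCdk8 replicate 2 or 3 or RA shNMC replicate 1 (adjusted p = 0.051 to 0.068).

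Pcgf2, also known as Mel18, had 64.8, 61.2 and 68.9 CPM in RA-treated shNMC cells, against 95.4, 105 and 97.6 CPM in shNMC mESCs (log2 -0.61, SE 0.07, adjusted p = 2.6e-07). It had 61.9, 58.7 and 63.6 CPM in RA-treated shCdk8 cells, against 101, 94.7 and 96.2 CPM in shCdk8 mESCs (log2 -0.66, SE 0.07, adjusted p = 8.4e-08). In shMed12 cells it had 62.6, 66.5 and 66.2 CPM after RA, against 80.2, 75.5 and 79.2 CPM as mESCs, a smaller gap (log2 -0.27, SE 0.07, adjusted p = 0.0041). The shMed12 mESCs lay below all shNMC mESCs (log2 -0.34, SE 0.07, adjusted p = 3.6e-04), and after RA the 2 lines overlapped (shMed12 against shNMC, log2 0.00, 95% interval -0.14 to 0.15). The RA responses of shMed12 and shNMC cells differed by 0.35 (SE 0.10, adjusted p = 0.040). That call was lost without any 1 of 11 of the 12 libraries, all but RA shNMC replicate 3 (adjusted p = 0.070 to 0.18), and also with no filter on low counts (log2 0.31, adjusted p = 0.083). Over the 8 group means Pearson's r was 0.94 for Pcgf6 with L3mbtl2, 0.93 for Pcgf2 with Pcgf6 and 0.89 for Pcgf2 with L3mbtl2, where the groups share the split into RA and mESC libraries.

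**Figure D5:**
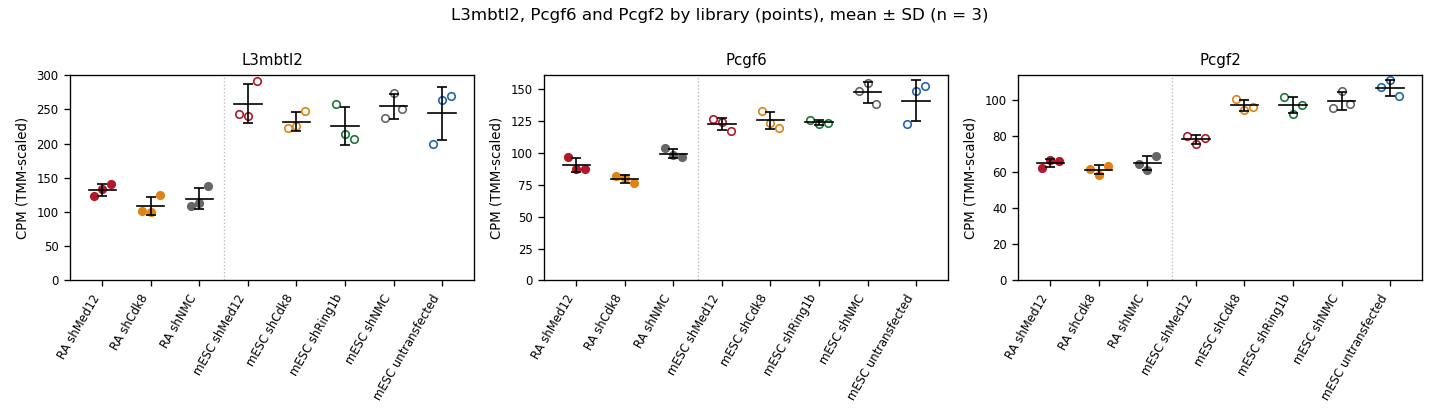
CPM of L3mbtl2, Pcgf6 and Pcgf2 in each library (points; filled after RA, open in mESCs), with the group mean (bar) and SD (error bar, n = 3), for the 8 groups. After RA L3mbtl2 lay between 99.9 and 141 CPM in 9 libraries, below all mESC libraries.

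The sequences before the starts of the genes that fell with RA in all 3 lines are shown as a description. They are the 250 bases upstream of the RefSeq start on GRCm38.p6 (the submitters' notes name mm9), read in the direction of the gene, and capitals mark the letters of AGGTCA, the half-site of retinoic acid receptors, and CACGTG, the E-box.
L3mbtl2, chr15:81663639-81663888, plus strand: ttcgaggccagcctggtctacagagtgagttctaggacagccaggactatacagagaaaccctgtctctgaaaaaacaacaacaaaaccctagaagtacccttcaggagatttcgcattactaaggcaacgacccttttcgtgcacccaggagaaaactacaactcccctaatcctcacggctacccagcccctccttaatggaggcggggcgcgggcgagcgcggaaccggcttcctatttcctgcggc
Pcgf6, chr19:47050907-47051156, minus strand: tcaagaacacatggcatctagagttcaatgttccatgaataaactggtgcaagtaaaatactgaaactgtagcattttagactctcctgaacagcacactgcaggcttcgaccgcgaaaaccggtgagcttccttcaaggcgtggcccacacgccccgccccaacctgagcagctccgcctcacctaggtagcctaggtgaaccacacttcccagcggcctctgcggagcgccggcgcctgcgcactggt
Pcgf2, chr11:97699649-97699898, minus strand: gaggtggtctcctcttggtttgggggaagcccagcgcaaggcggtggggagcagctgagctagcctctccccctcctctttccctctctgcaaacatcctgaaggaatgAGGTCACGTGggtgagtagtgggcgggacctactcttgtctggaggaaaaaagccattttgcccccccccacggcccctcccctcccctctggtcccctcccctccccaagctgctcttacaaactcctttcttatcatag
Both motifs were searched on both strands in windows from 250 bases before to 50 after the start. RefSeq gave such windows for 7 of the 10 genes, 13 windows in all. Only Pcgf2 held AGGTCA or CACGTG, with overlapping copies that begin at -141 and -137 from the start. Of 32851 mouse promoter windows of this length, 16.3% held AGGTCA and 7.15% held CACGTG. A match of letters is not a binding site, and no match says only that these letters are not in the window. The full windows held 17 CpG dinucleotides for L3mbtl2, 22 for Pcgf6 and 10 for Pcgf2, with a median of 7 over all windows. The 3 starts of Pcgf5 had 34, 5 and 35.

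The untransfected cells carried no hairpin. The effects of the Rnf2 knockdown and of transfection with a hairpin therefore cannot be told apart in any shRing1b result against them. With shRing1b in mESCs, against untransfected cells, Pcgf5 was the gene of the 10 that was called in the edgeR fit over all libraries. It had 26.9, 24.7 and 40.5 CPM in the shRing1b libraries, against 17.5, 15.5 and 13.3 CPM in the untransfected libraries, and the groups did not overlap. The log2 change was 0.99 (SE 0.15, adjusted p = 2.6e-04), a 1.99-fold difference, where 9.68% of all genes rose and 5.42% fell (15.1% together). The highest value came from the library labelled shRing1b replicate 3, the library that kept its Rnf2 RNA. Without that library the log2 change of Pcgf5 was 0.74 (adjusted p = 3.3e-04). When the spread was estimated from the 6 libraries of the comparison alone, none of the genes tested was called and Pcgf5 had a log2 change of 1.01 (adjusted p = 0.20). The other 9 genes were not called in the edgeR fit over all libraries without a block, and 4 of the 10 had an unadjusted p under 0.05. With the replicate block or with DESeq2 more of the 10 were called, as given below.

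Within the shRing1b group the libraries disagreed for Bcor and Yaf2. Bcor had 101 and 91.2 CPM in shRing1b replicates 1 and 2 and 50.4 CPM in the library labelled shRing1b replicate 3, against 64.7, 77.3 and 68.0 CPM in untransfected cells (log2 0.21, adjusted p = 0.41). Without replicate 3 Bcor was called higher (log2 0.46, adjusted p = 0.0013). Yaf2 had 9.67, 15.8 and 9.47 CPM in shRing1b libraries, against 9.31, 8.02 and 7.39 CPM in untransfected cells (log2 0.50, adjusted p = 0.11), and was called higher without replicate 3 (log2 0.63, adjusted p = 0.041). Kdm2b had 65.3, 69.6 and 69.1 CPM, against 72.6, 122 and 79.4 CPM in untransfected cells (log2 -0.42, adjusted p = 0.060). Leaving out untransfected replicate 1 made Kdm2b (log2 -0.55, adjusted p = 0.019) and Pcgf6 (log2 -0.27, adjusted p = 0.019) pass the threshold. The primitive endoderm markers summed to 945, 3580 and 270 CPM in shRing1b replicates 1, 2 and 3, against 439 to 674 CPM in untransfected cells, and the trophectoderm markers to 55.6 to 102 CPM with shRing1b, against 23.1 to 34.2 CPM. Their part in the results on shRing1b was not tested.

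The comparison of shNMC with untransfected cells holds any effect of the control hairpin. It also crosses the difference in multiply aligned reads, and the 2 cannot be told apart. With shNMC, against untransfected cells, edgeR and DESeq2 called none of the 10 genes, 1 (Kdm2b) had an unadjusted p under 0.05, and 0.00614% of all genes were called. The log2 changes ran from -0.35 for Kdm2b to 0.22 for Pcgf1. Untransfected replicate 2 stood out for Kdm2b with 122 CPM.

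In 3 comparisons the replicate numbers paired the libraries, and a fit with the number as a block on the compared groups alone called more. For shCdk8 against shNMC after RA it called 6 of the 10 genes, where 50% of all genes were called. Added to Kdm2b, Rybp and Pcgf6 were Yaf2 (log2 0.40, adjusted p = 1.6e-04), Bcor (log2 0.19, adjusted p = 0.0020) and L3mbtl2 (log2 -0.14, adjusted p = 0.0093). For shMed12 against shCdk8 in mESCs it called 6, against 3 without the block, at a background of 68.4%, and added Pcgf3 (log2 0.18), Bcor (log2 -0.21) and L3mbtl2 (log2 0.17). For RA against mESCs with shCdk8 it called 9, against 8, at a background of 77.8%, and added Rybp (log2 -0.16, adjusted p = 0.019). After RA, with shMed12 against shCdk8 and without a block, 1 gene was higher and 3 were lower, where 21.3% of all genes were higher and 20.1% lower. These were Pcgf5, and Bcor, Rybp (log2 -0.42, SE 0.12, adjusted p = 0.0098) and Pcgf3 (log2 -0.32, SE 0.12, adjusted p = 0.031). The Pcgf3 call was lost without RA shCdk8 replicate 2 or 3 or RA shMed12 replicate 1 or 2 (adjusted p = 0.073 to 0.16).

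Of the other genes of variant PRC1, more fell than rose with RA in shNMC cells and with shMed12 in mESCs. Of 22 tested, 3 rose and 10 fell with RA in shNMC cells, where 27.3% of all genes rose and 24.1% fell. The median log2 change was -0.24, against 0.02 over all genes. Wdr5, a WD-repeat protein also found in Trithorax complexes, had a log2 change of -1.06 (SE 0.08, adjusted p = 1.6e-09), Mga, the DNA-binding partner of Max, -0.89 (adjusted p = 3.0e-05), and Usp7, a deubiquitinase, -0.73 (adjusted p = 5.5e-08). With shMed12 in mESCs, against shNMC, 2 rose and 9 fell, where 20.6% of all genes rose and 19.9% fell (median -0.23, against -0.01 over all genes), among them Mga (-0.70, adjusted p = 5.2e-04), Bcorl1, the paralog of Bcor (-0.67, adjusted p = 1.9e-05), and Wdr5 (-0.57, adjusted p = 8.2e-06). After RA, with shMed12 against shNMC, 5 of the 22 rose and 5 fell, near the share of all genes (21.3% and 20.6%). With shCdk8, against shNMC, 2 fell in mESCs, namely Wdr5 (-0.31) and Usp7 (-0.27), and 1 after RA, Csnk2a1 (-0.43), where 1.42% and 3.64% of all genes fell. With shRing1b, against untransfected cells, 2 rose and 3 fell, where 9.68% of all genes rose and 5.42% fell. Among those that fell was Rnf2, the target of this hairpin (log2 -1.27, adjusted p = 0.0057), so the count of falls holds the knockdown itself. Without the library labelled shRing1b replicate 3, 3 rose and 5 fell, at 23.7% of all genes called, in a list that also holds Rnf2.

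Of the canonical PRC1 genes, more rose than fell with RA. Of 10 tested, 6 rose and 3 fell with RA in shNMC cells (median log2 change 0.45, against 0.02 over all genes), where 27.3% of all genes rose and 24.1% fell, among them the chromobox gene Cbx8 (3.24, SE 0.36, adjusted p = 2.8e-07), while Phc1, a Polyhomeotic homolog, fell (-0.99, SE 0.16, adjusted p = 3.1e-05). With shMed12 in mESCs, against shNMC, 2 of the 10 rose and 2 fell, at the share of all genes (20.6% and 19.9%), with Phc2 at 1.07 (SE 0.14, adjusted p = 1.8e-06) and Phc1 at -0.84 (SE 0.16, adjusted p = 2.5e-04). With shRing1b, against untransfected cells, 5 rose and 1 fell, where 9.68% of all genes rose and 5.42% fell. The count was also 5 and 1 without the library labelled shRing1b replicate 3, at 23.7% of all genes called. The Polycomb gene Scml2 had a log2 change of 2.14 (SE 0.30, adjusted p = 8.3e-05). With shCdk8, against shNMC, none was called in mESCs, and after RA Phc2 rose and Phc1 fell, where 4.1% of all genes rose and 3.64% fell.

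Of the germline genes that the Pcgf6 complex is known to silence, most fell with shMed12 and most rose with shRing1b. Of 14 tested, none rose and 10 fell in mESCs with shMed12, against shNMC, where 20.6% of all genes rose and 19.9% fell. The median log2 change was -1.0. Smc1b, a meiotic cohesin subunit, stood at -2.63 (SE 0.30, adjusted p = 4.2e-07), Hormad1, a meiotic chromosome axis protein, at -2.59 (SE 0.21, adjusted p = 2.4e-09), and Mael, a piRNA pathway gene, at -1.0 (SE 0.14, adjusted p = 3.9e-06). After RA, with shMed12 against shNMC, none rose and 11 fell, with a median of -0.96, where 21.3% of all genes rose and 20.6% fell. With shRing1b, against untransfected cells, 9 rose and none fell (median 1.2), where 9.68% of all genes rose and 5.42% fell. Mael had a log2 change of 1.47 (SE 0.14, adjusted p = 1.6e-06) and Tdrkh, another piRNA pathway gene, of 1.82 (SE 0.20, adjusted p = 5.4e-06). Without the library labelled shRing1b replicate 3, 9 rose and 3 fell, at 23.7% of all genes called. The fit on the 6 libraries of the comparison alone, with 0 calls over all genes, called no gene of any list. RA in shNMC cells had 6 of the 14 higher and 2 lower (median 0.39), where 27.3% of all genes rose and 24.1% fell. With shCdk8 none was called in mESCs and Hormad1 fell after RA (log2 -0.64, adjusted p = 0.044), where 3.66% and 7.73% of all genes were called.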

How the data were processed

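Poly-A RNA of 24 strand-specific libraries (50 bp reads) was counted per gene symbol. The deposited values are raw read counts, 1 file per library with 22609 symbols, and the authors applied no scaling to them as far as the values show. The submitters' processing notes name HTSeq 0.6.1p1, STAR 2.3.1z13, SAMtools 1.2, DESeq2 1.6.3, bcl2fastq 1.8.4 and build mm9, without roles. Neither the annotation nor the strand setting is given in the sources used here. The 5 entries that name no gene were left out of library sizes. Multiply aligned reads made 20.0% to 49.1% of all entries, reads in no feature 8.70% to 17.3% and ambiguous reads 0.111% to 0.197%. Total gene counts were 27.4 to 57.3 M, so 3 counts stood for 0.0523 to 0.109 CPM. Intervals cover the spread between libraries, and in each pair of replicates the mean chi-square per gene, 7.17 to 126, was above counting noise.

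The fit used R 4.3.3 and edgeR 4.0.16 on the counts of all 24 libraries: TMM scaling after filterByExpr, robust dispersions, a mean for each group (16 residual degrees of freedom) and two-sided quasi-likelihood F tests. The adjusted p is Benjamini-Hochberg over 16280 genes within each of 13 comparisons. The SE is the size of the log2 change over the square root of F. The code was tested on simulated data. Alternatives were median-ratio size factors, no filter, DESeq2 1.42.0, the replicate number as a block, the compared groups only (with and without the block), shNMC in place of untransfected cells for shRing1b, and leaving out each library. Same-numbered libraries of the compared groups deviated together (all 3 correlations of residuals over 0.1) for shCdk8 against shNMC after RA (0.666, 0.433 and 0.682), RA against mESCs with shCdk8 (0.572, 0.337 and 0.532) and shMed12 against shCdk8 in mESCs (0.430, 0.333 and 0.545). This pairing comes from the data, not from the labels.

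Named genes are the 10 members, the hairpin targets, and up to 4 genes with the lowest p of each other list. The members and lists were chosen with earlier results of these data known. Counts of the lists without shRing1b replicate 3 were added after seeing the data. Gene models came from GENCODE M21 and promoters from RefSeq (GRCm38.p6), matched by symbol. shZrf1 cells and untransfected RA-treated cells, which the series text mentions, were not analysed here. Values of 1 listed gene are not reported here.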

Additional observations from a re-analysis of the deposited data

Results flagged for a closer look

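The RA response differed between shMed12 and shNMC cells for Rybp and Pcgf2 of the 10 genes, by the interaction term of the edgeR fit. For Rybp the difference of the responses was -0.65 on the log2 scale (SE 0.18, adjusted p = 0.033). All 3 RA-treated shMed12 libraries (40.4 to 43.7 CPM) lay below all 3 shMed12 mESC libraries (56.8 to 65.3 CPM), while the RA-treated shNMC libraries (71.9 to 86.8 CPM) overlapped the shNMC mESC libraries (62.4 to 84.7 CPM). For Pcgf2 the difference was 0.35 (SE 0.10, adjusted p = 0.040), with a smaller fall in shMed12 cells, whose mESCs started lower. In this interaction 5.04% of all genes were called. Both genes lost the call when single libraries were left out.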

How the results depend on the processing

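Over 130 gene-by-comparison results and 1690 values under alternatives, 1579 kept their side of the threshold, 60 calls were lost and 51 were gained. No called value changed sign, and 68 values that were not called did. Among the 10 genes, shCdk8 against shNMC in mESCs gave 0 calls in the fit over all libraries, and 1 with the replicate block, 1 with DESeq2, 2 on the compared groups only and 5 on those with the block. Over all genes these fits called 596, 905, 1147, 2334 and 4116, of 14847 to 16280 tested. For shRing1b against untransfected cells the count was 1, and 3 with the replicate block, 2 with DESeq2, 0 on the compared groups only, 0 on those with the block and 2 with shNMC in place of untransfected cells. Over all genes these fits called 2459, 2762, 2922, 0, 0 and 3294, of 14378 to 16280 tested. On the compared groups with the replicate block the counts were 6 for shCdk8 against shNMC after RA (3 in the fit over all libraries), 6 for shMed12 against shCdk8 in mESCs (3), 7 for the same after RA (4) and 2 for the shCdk8 interaction (0). Over all genes these fits with the block called 7910 of 15828, 10267 of 15001, 10447 of 15878 and 305 of 15947 tested. The counts of the 10 genes therefore cannot be read apart from these totals. With no filter the shMed12 interaction called 1 (2), where 738 of 19916 genes were called (820 of 16280). The block changed no other count of the 10 genes by over 1.5 times. The causes were not tested.

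Leaving out each library gave 4 to 6 calls for shMed12 in mESCs, 0 to 0 for shCdk8 in mESCs, 1 to 3 for shRing1b, 4 to 6 for shMed12 after RA and 0 to 3 for shCdk8 after RA. It gave 4 to 6 for RA in shNMC cells, 4 to 6 in shMed12 cells and 5 to 7 in shCdk8 cells. For the interactions the counts were 0 to 2 with shMed12 and 0 to 0 with shCdk8. For shMed12 against shCdk8 they were 2 to 3 in mESCs and 3 to 4 after RA. For shNMC against untransfected cells they were 0 to 0. All of these are counts of the genes described here, not set against the share of all genes called in the same fit. For shRing1b that share was 15.1% with all libraries and 23.7% without the library labelled shRing1b replicate 3. A higher count without that library therefore cannot be read as a change of these genes alone.

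Over all genes, shCdk8 in mESCs had 596 calls, and 905 with the block, 1147 with DESeq2, 2334 on the compared groups and 4116 on those with the block. shRing1b had 2459, and 0 on the compared groups with or without the block. shCdk8 after RA had 1259, and 2744 on the compared groups and 7910 on those with the block. The shMed12 interaction had 820, and 1250 with DESeq2, 2237 on the compared groups and 3708 on those with the block. The shCdk8 interaction had 6 (83.3% higher), and 8 with no filter (62.5%), 11 with the block (72.7%), 27 with DESeq2 (66.7%), 38 on the compared groups (60.5%) and 305 on those with the block (54.8%). Compared groups with the block gave 10233 for shMed12 after RA (6814), 9788 for RA in shMed12 cells (6044), and 10267 (5833) and 10447 (6747) for shMed12 against shCdk8 in mESCs and after RA. shNMC against untransfected cells had 1, and 0 on the compared groups.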

Other observations

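Within groups, some of the genes ranked with the replicate number of the library. Yaf2 was lowest in the library numbered 3 in all 8 groups, and Kdm2b was lowest in the library numbered 1 in all 8 groups. Pcgf6 was highest in the library numbered 1 in 6 of the 8 groups, and L3mbtl2 in the library numbered 3 in 6 of the 8. The labels do not say what the number marks. Fits with the number as a block are given with the results and the alternatives.

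Among all tested genes, the 3 whose mean log2 CPM over the 8 groups followed Yaf2 most closely were Meis3 (Pearson's r 0.998), Alg8 (0.994) and Smpd1 (0.993). For Pcgf5 they were Krt19 (0.993), Pom121 (0.989) and Igfbp4 (0.987). Across the 10 genes themselves Pcgf1 and Pcgf2 had r = -0.94 and Rybp and Yaf2 r = -0.74 over the same 8 group means. These are descriptions over means that share their libraries and the split into RA-treated cells and mESCs.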
